A study of Mus musculus with 12 samples.

Results

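The guanylate-binding proteins (Gbp) are large GTPases of the dynamin superfamily that are encoded in the mouse by a gene cluster on chromosome 3 and another on chromosome 5. The 10 genes described here, Gbp2 to Gbp11, were chosen by their names as listed members of the family, out of 12 annotated genes whose symbol starts with Gbp and 55536 annotated genes in all. Reads were summed over each gene's transcripts and, because paralogs share sequence and reads, also over the 10 members (the family sum).

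The series holds total RNA-seq of primary mouse oligodendrocyte precursor cells (OPCs), the proliferating progenitors of the oligodendrocyte lineage. They came from pooled brains of pups at P4 to P6 and were isolated either by flow sorting for Sox10-GFP or with magnetic beads against CD140a. The GFP, per the study's methods, is an EGFP reporter released by a Sox10:Cre driver on a mixed background, and the labels do not say which isolation a library had. All cells were grown in proliferation medium with PDGFaa and bFGF, and 4 replicates a group, from different litters, were left as controls (Ctr-OPCs), given dexamethasone at 1 µM for 48 hours (Dexa-OPCs) or given interferon-γ (IFN-γ) at 100 ng/ml for 48 hours (IFNg-OPCs). Dexamethasone is a synthetic glucocorticoid. The labels also name the EAE mouse model, although these are cultured cells of young pups and no library is labelled as coming from an immunised animal. The Dexa 3 table stops after 33.7% of the transcripts, holds 0 Gbp transcripts and was not used, so 11 libraries remained, with 3 in the Dexa group.

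IFN-γ binds a receptor whose JAK kinases activate transcription factors that bind gamma-activated sites (GAS). A complex with IRF9, and separately IRF1, binds interferon-stimulated response elements (ISRE). Gbp genes are among the classic targets of this pathway. Their protein products assemble on the membranes of vacuoles that hold intracellular pathogens, together with the immunity-related GTPases, and some members take part in inflammasome activation.

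The promoter sequences are shown first, because they hold the letters that the IFN-γ-activated factors are known to bind. Windows from 250 bases before to 50 bases after the start of a transcript (RefSeq, GRCm38.p6) matched 4 of the 10 members by symbol, namely Gbp2, Gbp3, Gbp5 and Gbp7, and not Gbp4, Gbp6, Gbp8, Gbp9, Gbp10 or Gbp11. A window for Gbp2b, a family gene outside the list, is shown beside them. They were searched on both strands for a GAS, TTCNNNGAA, and for an ISRE core, GAAANNGAAA, which reads TTTCNNTTTC on the other strand. Stretches around matches are printed 5′ to 3′ on the plus strand, the strand of all these genes, with each match in capitals.
Gbp5, chr3:142496754-142496793, ISRE core: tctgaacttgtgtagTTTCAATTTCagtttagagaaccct
Gbp5, chr3:142496867-142496899, GAS: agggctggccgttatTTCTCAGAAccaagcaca
Gbp7, chr3:142530215-142530307, 2 GAS and ISRE core: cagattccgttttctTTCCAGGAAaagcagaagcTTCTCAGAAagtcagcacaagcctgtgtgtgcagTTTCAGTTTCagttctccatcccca
Gbp3, chr3:142559984-142560025, 2 overlapping ISRE cores: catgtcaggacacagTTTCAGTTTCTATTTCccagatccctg
Gbp2, chr3:142620589-142620613, ISRE core: taggaactcttttagTTTCACTTTC
Gbp2b, chr3:142594695-142594734, ISRE core: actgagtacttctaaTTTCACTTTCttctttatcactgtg

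A window of each of the 4 matched members held an ISRE core, while 3.44% of all 32851 windows of the same length did. The members are counted by gene here and the background by window. A further window of Gbp3, for a transcript start at chr3:142560356, held neither motif. GAS letters were in the windows of Gbp5 and Gbp7 and in 8.30% of all windows. Both motifs were in 0.454% of all windows. The ISRE core of Gbp2 began 59 bases before the RefSeq start and that of Gbp7 began 53 bases before it, on the other strand in both genes. In the annotation used to sum the reads, Gbp2 starts further upstream, and its match lies within the first exon. Gbp5 also starts further upstream there, at chr3:142493978, so its matches lie within the annotated gene, outside annotated exons. These matches describe letters only, and binding of a factor was not measured in these files.

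**Figure D1:**
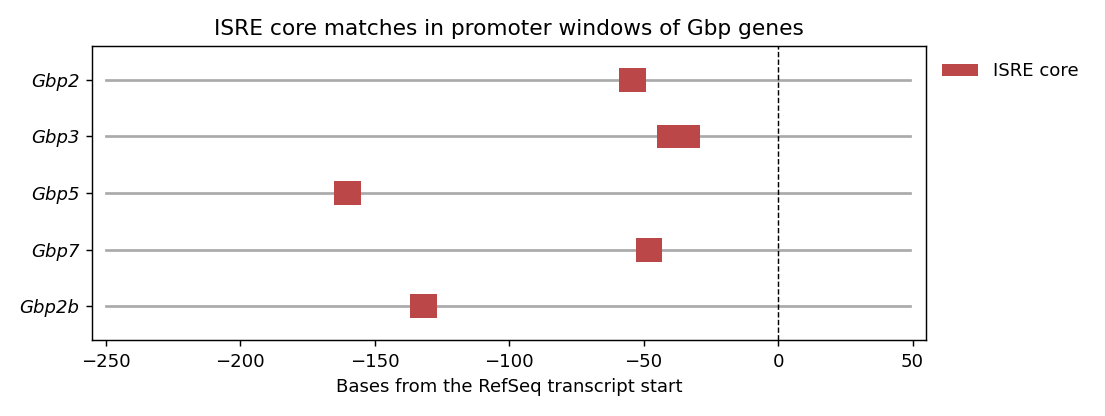
ISRE core matches in the promoter windows of 4 Gbp members and of Gbp2b, by distance in bases from the RefSeq transcript start (dashed line); grey lines mark the 300-base windows and red boxes the ISRE cores. All 5 genes have an ISRE core before the RefSeq start, and that of Gbp3 is a pair of overlapping matches. In the annotation used for the reads, that of Gbp2 lies in the first exon and that of Gbp5 within the gene, outside annotated exons.

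The chromosome 3 members span chr3:142493978-142638008 on the plus strand and the chromosome 5 members chr5:105014150-105346472 on the minus strand (GRCm38). On chromosome 3 lie Gbp5 (ENSMUSG00000105504), Gbp7 (ENSMUSG00000040253), Gbp3 (ENSMUSG00000028268) and Gbp2 (ENSMUSG00000028270), in that order. On chromosome 5 lie Gbp8 (ENSMUSG00000034438), Gbp9 (ENSMUSG00000029298), Gbp4 (ENSMUSG00000079363), Gbp10 (ENSMUSG00000105096), Gbp6 (ENSMUSG00000104713) and Gbp11 (ENSMUSG00000092021). The annotated extents of Gbp4, Gbp8 and Gbp9 overlap and share nearly the same 5′ end. Of the 10, Gbp11 is annotated as a polymorphic pseudogene and the others as protein coding.

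The 11 complete libraries held between 19209063 and 52074652 estimated reads. The 8 OPC markers examined, among them Pdgfra, Cspg4, Sox10 and Olig2, summed to between 135154 and 478415 normalized counts a library. Microglial and macrophage markers were near 0. Their summed normalized count over 12 genes was 18.4 to 48.9 in the Ctr libraries and 24.8 to 48.0 in the Dexa libraries. In the IFNg libraries it was 36.8 to 59.1. T cell markers summed to at most 11.9 in any library.

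IFN-γ raised every member of the family. The 10 members together took 397 to 948 reads in a Ctr library and 284890 to 393573 reads in an IFNg library, which is 0.00128% to 0.00214% of all reads against 0.997% to 1.12%. In normalized counts, which are counts divided by a library's DESeq2 size factor, the family sum was 729.7, 587.3, 577.9 and 431.1 in Ctr libraries 1 to 4 and 353862, 371505, 345107 and 365739 in IFNg libraries 1 to 4. The IFNg libraries were all far above the Ctr libraries and lay closer to each other in proportion. The difference was 9.27 ± 0.17 (log2 fold change ± SE, 617-fold), with an adjusted p of 7.57e-10 by edgeR's quasi-likelihood test with Benjamini-Hochberg adjustment. In these bulk libraries more RNA per cell and more cells of a kind that expresses the genes cannot be told apart.

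All 10 members rose in IFNg-OPCs against Ctr-OPCs by DESeq2 at an adjusted p under 0.05 and by edgeR. Gbp8 and Gbp11 passed the filter on low counts only through the IFNg libraries, so being tested already required high values there. The other 8 passed it without these libraries. Over all 17919 genes tested, 8.02% were called higher in this comparison. The median log2 fold change of the members was 9.86, against -0.02 over all genes tested, and 96 genes in all were at or above the lowest member. For none of the 10 did the Ctr and IFNg libraries overlap. The share of all genes tested without overlap was not counted. The adjusted p-values of the members were at most 9.10e-82 by DESeq2 and between 1.55e-10 and 1.70e-06 by edgeR's quasi-likelihood test, both with Benjamini-Hochberg adjustment.

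**Figure D2:**
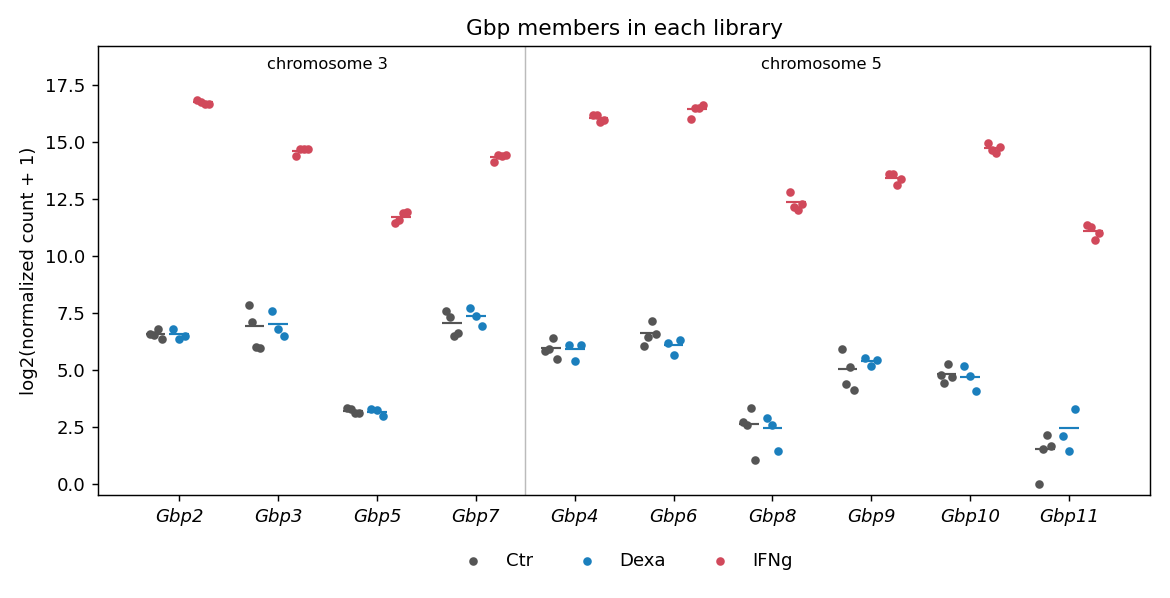
Normalized counts of the 10 Gbp members on a log2(count + 1) axis, by gene, with 1 point a library and a bar at the group mean (4 Ctr, 3 Dexa and 4 IFNg libraries). For every member the IFNg libraries sit above all others, and the Dexa libraries overlap the Ctr libraries.

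Of the members whose product ends in a prenylation motif, which anchors the protein in membranes, Gbp2 had the highest level. Its normalized counts were 94.5, 91.1, 110.9 and 81.4 in the Ctr libraries and 117486, 110869, 103511 and 104208 in the IFNg libraries. Its groups did not overlap and its spread was small in both, and the difference was 10.16 ± 0.12 (log2 ± SE, 1146-fold). Ranked by TPM, a scale that allows for transcript length, Gbp2 stood between 39 and 48 from the top of all genes in the IFNg libraries and between 12491 and 13082 in the Ctr libraries. Gbp5, the other prenylated member, is known for its part in activating the NLRP3 inflammasome. Gbp5 had normalized counts of 9.2, 8.7, 7.6 and 7.6 in the Ctr libraries, which rest on 7 to 14 reads a library, and 2749, 3009, 3750 and 3917 in the IFNg libraries. The groups did not overlap and Gbp5 rose by 8.66 ± 0.28 on the log2 scale.

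Gbp3 and Gbp7, the remaining chromosome 3 members, had the smallest fold changes of the 10. The normalized counts of Gbp3 were 225.8, 134.4, 63.4 and 61.9 in the Ctr libraries and 21320, 26485, 26427 and 26097 in the IFNg libraries. Ctr 1 was thus the highest control and IFNg 1 the lowest IFN-γ library, and the 2 groups stayed far apart. Gbp3 rose by 7.69 ± 0.40 (log2 ± SE, 207-fold). Gbp7, which is found at the vacuoles of Toxoplasma in infected cells, had 189.1, 159.2, 89.5 and 97.7 in the Ctr libraries and 17904, 22197, 21456 and 21719 in the IFNg libraries. It showed the same order, with Ctr 1 highest and IFNg 1 lowest, and its rise was 7.28 ± 0.26 on the log2 scale (155-fold). Between libraries of the same replicate number the log2 ratio of IFNg to Ctr ran from 6.56 in pair 1 to 8.72 in pair 4 for Gbp3 and from 6.57 in pair 1 to 7.90 in pair 3 for Gbp7.

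Of the chromosome 5 members, Gbp4, Gbp6 and Gbp10 had the highest counts. Gbp4 had 56.0, 60.1, 82.7 and 43.4 normalized counts in the Ctr libraries and 74293, 73240, 60244 and 63550 in the IFNg libraries, a log2 difference of 10.11 ± 0.21. Gbp6 had 64.3, 86.7, 140.5 and 94.5 in the Ctr libraries and 66304, 91128, 91833 and 100781 in the IFNg libraries, a log2 difference of 9.82 ± 0.25. Gbp10 had 26.6, 20.4, 37.2 and 25 in the Ctr libraries and 31677, 25141, 23369 and 27883 in the IFNg libraries, a log2 difference of 9.95 ± 0.22. In all 3 genes Ctr 3 was the highest control, and no IFNg library came near the controls.

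Gbp8, Gbp9 and Gbp11 were lower. Gbp9 had 58.7, 19.8, 33.8 and 16.3 normalized counts in the Ctr libraries and 12321, 12489, 8740 and 10677 in the IFNg libraries, and rose by 8.43 ± 0.32 on the log2 scale. Gbp8 had 5.5, 5.0, 9.0 and 1.1 in the Ctr libraries and 7207, 4501, 4138 and 4871 in the IFNg libraries, and rose by 9.90 ± 0.38. Gbp11 had 0, 1.9, 3.4 and 2.2 in the Ctr libraries and 2602, 2448, 1640 and 2036 in the IFNg libraries, and rose by 10.12 ± 0.51. The control levels of Gbp8 and Gbp11 rest on 1 to 13 and 0 to 5 reads a library. Without the IFNg libraries these 2 genes would not have passed the filter on low counts, and the other 8 would have.

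**Figure D3:**
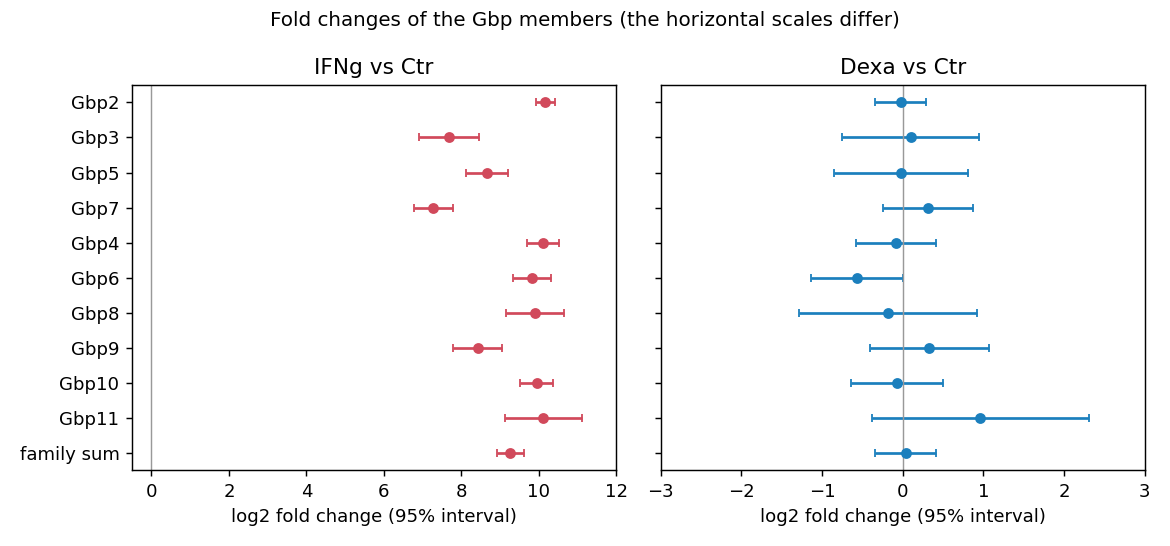
Log2 fold changes of the 10 members and of the family sum, with 95% intervals from DESeq2, for IFNg against Ctr (left) and Dexa against Ctr (right); the horizontal scales differ. The IFN-γ values run from 7.28 (Gbp7) to 10.16 (Gbp2), and every dexamethasone interval includes 0.

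Dexamethasone gave no detectable change of the family. Against Ctr-OPCs, 0 of the 10 members passed the test in either direction by DESeq2 or by edgeR, and 0 had an unadjusted p under 0.05 by DESeq2. Of all genes tested, 0.547% were called in either direction by DESeq2 in this comparison and 0.508% were called higher. Of the same 17919 genes edgeR called 22, and 641 had an unadjusted p under 0.05 by DESeq2. The family sum was 749.0, 521.2 and 520.7 normalized counts in Dexa libraries 1, 2 and 4, inside the range of the Ctr libraries but for Dexa 1, and its log2 fold change was 0.04 ± 0.19, with a 95% interval from -0.34 to 0.41. The Dexa and Ctr libraries overlapped for all 10 members, and the share over all genes tested was not counted.

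The dexamethasone values of the single members were as follows. Gbp6 had 71.2, 48.8 and 78.6 normalized counts in the Dexa libraries, and its log2 difference from Ctr was -0.57, with a 95% interval from -1.13 to 0.00. The split of its reads from those of genes with shared sequence is uncertain (below). Gbp3 had 190.0, 109.5 and 89.1, and Gbp7 had 211.5, 165.9 and 120.6. For both genes replicate 1 was the highest library of the Dexa group as it was of the Ctr group, and the log2 differences were 0.10 ± 0.43 and 0.32 ± 0.28. Gbp2, with 111.2, 80.8 and 89.1, gave the narrowest interval, from -0.34 to 0.29 on the log2 scale. The widest was that of Gbp11, from -0.39 to 2.31, on 2 to 5 reads a Dexa library. The remaining Dexa levels were 40.4 to 68.1 for Gbp4, 7.0 to 8.6 for Gbp5, 1.7 to 6.5 for Gbp8, 35.4 to 44.3 for Gbp9 and 15.7 to 34.5 for Gbp10, each overlapping its Ctr levels.

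Set against Dexa-OPCs, IFNg-OPCs also had higher levels of all 10 members, where 7.66% of all genes were called higher. Gbp8 and Gbp11 were again tested only through the IFNg libraries. The log2 differences ran from 6.96 for Gbp7 to 10.39 for Gbp6, with 9.23 ± 0.19 for the family sum, and edgeR's adjusted p-values (quasi-likelihood test, Benjamini-Hochberg) from 6.64e-10 to 6.78e-06. The 2 comparisons of IFNg-OPCs share the IFNg libraries and the comparisons with Ctr-OPCs share the Ctr libraries.

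On the TPM scale the order of the members by group mean changed with IFN-γ. In Ctr-OPCs Gbp3 came first at 1.23 ± 0.71 TPM (SD, n = 4), but was above Gbp2 in only 2 of the 4 libraries. Gbp2 followed at 0.76 ± 0.13, then Gbp7 at 0.64 ± 0.23, Gbp6 at 0.60 ± 0.22 and Gbp4 at 0.46 ± 0.12. These levels overlapped from each to the next. The step from Gbp4 down to Gbp10 at 0.20 ± 0.04 TPM did not overlap, nor did the step from Gbp5 at 0.047 ± 0.004 to Gbp11 at 0.015 ± 0.011. Gbp9 at 0.17 ± 0.09 and Gbp8 at 0.052 ± 0.035 lay between and overlapped their neighbours.

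In IFNg-OPCs Gbp2 came first at 985 ± 134 TPM (SD, n = 4), above Gbp6 at 579 ± 117 without overlap. Gbp6 and Gbp4, at 538 ± 127 TPM, overlapped. Gbp3 at 251 ± 35.1 and Gbp10 at 207 ± 33.5 TPM overlapped as well, and Gbp7 followed at 112 ± 17.4. Gbp9 at 61.4 ± 14.9 overlapped Gbp8 at 48.6 ± 12.9, and Gbp5 at 24.7 ± 4.6 overlapped Gbp11 at 18.6 ± 5.06. Summed over the family, the level was 4.18 ± 0.93 TPM in Ctr-OPCs and 2826 ± 393 TPM in IFNg-OPCs.

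Summed, the chromosome 3 members made up a smaller part of the family TPM after IFN-γ, although the share of Gbp2 rose (below). They held 72.8%, 69.5%, 51.5% and 59.1% of it in Ctr libraries 1 to 4 and 48.9%, 48.0%, 49.6% and 48.0% in IFNg libraries 1 to 4. The share was lower in the IFNg library of all 4 replicate numbers, by as little as 1.83 percentage points in replicate 3, and the IFNg libraries were close together where the Ctr libraries were spread. Ctr 3 and Ctr 4 had the lowest shares of the controls, as they had the lowest Gbp3 counts, and the titles of replicates 3 and 4 share a prefix whose meaning the labels do not give. The part of that prefix in the spread was not tested. The means were 63.2 ± 9.79% and 48.6 ± 0.778% (SD, n = 4), and the exact two-sided permutation test gave p = 0.0286, the smallest that 4 against 4 allows. As a test over the 4 replicate pairs, the exact p was 0.125, the smallest that 4 pairs allow. The 3 Dexa libraries held 63.7% to 73.8%. The single chromosome 3 members did not move alike. Gbp3 held 15.97% to 41.02% of the family TPM in the Ctr libraries and 8.22% to 9.40% in the IFNg libraries. Gbp7 held 12.1% to 17.5% and 3.32% to 4.29%. Gbp2 went the other way, from 13.8% to 22.6% in the Ctr libraries to 33.8% to 36.7% in the IFNg libraries. Gbp5 held at most 1.49% in any library. The lower sum is thus a fall of Gbp3 and Gbp7, not of the whole cluster.

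**Figure D4:**
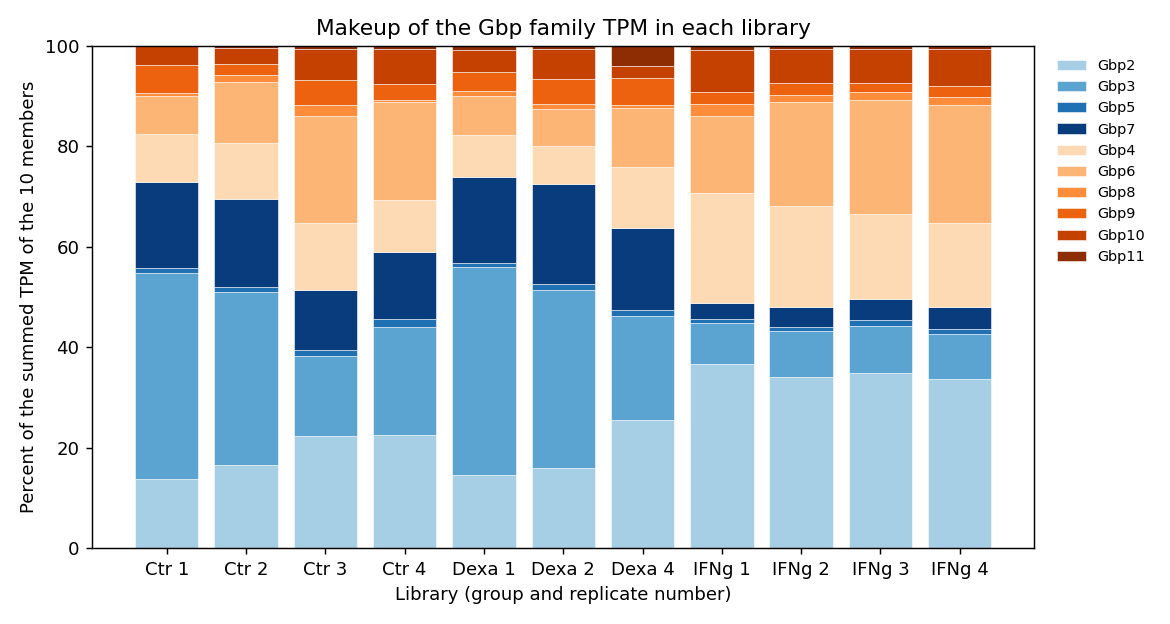
Percent of the summed TPM of the 10 members that each member held, by library, with chromosome 3 members in blue and chromosome 5 members in orange. The chromosome 3 part runs from 51.5% to 72.8% in the Ctr libraries and from 48.0% to 49.6% in the IFNg libraries. Within it the share of Gbp2 is higher in the IFNg libraries, and those of Gbp3 and Gbp7 are lower.

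The reads that carried the rise were not all assigned to protein-coding transcripts. In IFNg-OPCs 72.2% of the reads of Gbp4 (69.6% to 75% over libraries) and 54.1% of those of Gbp6 (51.9% to 57.4%) went to a transcript annotated as subject to nonsense-mediated decay, a pathway that removes mRNAs with a premature stop codon. Gbp9 had 32.8 ± 0.970% (SD, n = 4) on a transcript with a retained intron. By contrast 99.98% of the reads of Gbp2, 99.4% of those of Gbp3 and 96% of those of Gbp10 went to protein-coding transcripts, and 75.5% of those of Gbp5 did. Over the family, transcripts of the nonsense-mediated decay class held 27.0 ± 1.80% of the reads in IFNg-OPCs and 17.2% of the 2979 reads pooled from the 4 Ctr libraries. A shift between genes and a shift between transcripts of a gene both enter that difference. In the pooled Ctr reads the class held 80.7% for Gbp4, above its IFNg share, and 48.4% for Gbp6, below it. These are shares that Salmon estimated among overlapping transcripts.

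**Figure D5:**
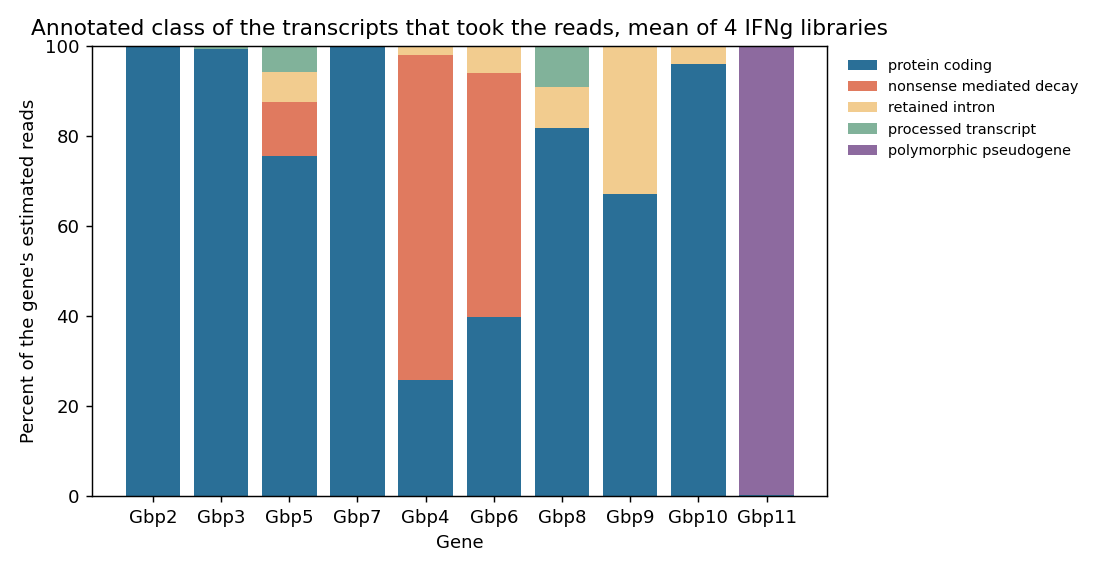
Percent of each member's estimated reads by the annotated class of transcript, as means over the 4 IFNg libraries. The nonsense-mediated decay class holds 72.2% for Gbp4 and 54.1% for Gbp6, and Gbp11 lies almost wholly on its pseudogene transcript.

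How well single members can be told apart depends on how much of their sequence is their own. Of the 31-base words in the annotated transcripts of a gene, 96.9% of those of Gbp5, 95.1% of those of Gbp2 and 94.4% of those of Gbp3 occurred in no other gene. For Gbp6 only 25.8% were its own and for Gbp10 only 10.2%. Gbp10 shared 80.8% of its words with Gbp6 and 76.7% with Gm43302, a gene model that spans both. The split of reads among these 3 is uncertain. Gm43302 itself had 22.0, 4.3, 0 and 0 normalized counts in the Ctr libraries and 18677, 15403, 16401 and 15919 in the IFNg libraries. In the Dexa libraries it had 25.9, 28.6 and 26.2. Gbp6, Gbp10 and Gm43302 summed gave a log2 fold change of 9.97 ± 0.17 for IFNg against Ctr, close to Gbp6 and Gbp10 alone. For Dexa against Ctr the sum gave -0.15 ± 0.20, where Gbp6 alone gave -0.57.

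The annotated Gbp genes outside the list had few reads or none. Gbp2b lies between Gbp3 and Gbp2 and has an ISRE core in its window (above), but had 0 reads in every Ctr and Dexa library and 6, 9, 2 and 4 reads in IFNg libraries 1 to 4. Gbp2-ps, a pseudogene, had 0 reads in all 11 libraries. At these counts no fold can be given.

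The genes next to the clusters had smaller fold changes than the members. Of the 3 nearest protein-coding genes on each side of each cluster, 12 in all, 11 were tested. Of these 5 were called higher by DESeq2 and 2 by edgeR. Over all 17919 genes tested, 1437 were called higher by DESeq2 and 1086 by edgeR. Kyat3, which encodes an aminotransferase of the kynurenine pathway and starts 32.0 kb after Gbp2-ps, the last Gbp gene of the chromosome 3 cluster, had normalized counts of 172 ± 56.4 in Ctr-OPCs and 659 ± 71.6 in IFNg-OPCs (SD, n = 4). Its libraries did not overlap and it rose by 1.94 ± 0.25 on the log2 scale (edgeR's quasi-likelihood test, Benjamini-Hochberg adjusted p = 3.44e-04). Zfp951, a zinc-finger gene before the chromosome 5 cluster, rose from 70.8 ± 5.37 to 124 ± 11, a log2 difference of 0.82 ± 0.14. Gtf2b at 0.29, Lrrc8b at 0.60 and Lrrc8c at 0.42 on the log2 scale were called by DESeq2 and not by edgeR. Unc5c, Bmpr1b, Pdlim5, Pkn2, BC005561 and Lrrc8d had log2 differences between -0.59 and 0.23 that did not pass. By DESeq2 with the replicate block 6 of the 11 were higher and 2, Unc5c and Lrrc8d, lower. Of all 17919 genes tested, 2717 were higher and 2521 lower in that fit. None of the 11 was called for dexamethasone.

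Genes of interferon and other cytokine signalling were also measured, from lists chosen by function. All 6 transcription factors listed for the IFN-γ pathway rose. Irf8 rose by 6.78 ± 0.13, Irf1 by 6.01 ± 0.10, Irf9 by 4.11 ± 0.15 and Stat2 by 3.29 ± 0.12 (log2 ± SE), and the median of the list was 3.70. Of the 4 receptor and kinase genes, Jak1 rose by 0.63 ± 0.06 and Jak2 by 1.16 ± 0.16, while Ifngr1, the ligand-binding receptor chain, was lower at -0.28 ± 0.09 by DESeq2 (Benjamini-Hochberg adjusted p = 0.0225) and was not called by edgeR (adjusted p = 0.0858). Of 6 listed feedback inhibitors of cytokine signalling, not all of them particular to IFN-γ, 4 rose. Usp18 was at 6.17 ± 0.23 and Socs1, which blocks JAK kinases, at 6.08 ± 0.17, then Socs3 at 1.40 and Cish at 1.31.

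Most tested immunity-related GTPases, partners of the Gbp proteins at pathogen vacuoles, had fold changes near those of the Gbp genes. Gm4841, Tgtp1 and Iigp1 lay above the highest member, Gbp2 at 10.16. Of 13 listed genes 11 were tested and 10 rose, with a median log2 fold change of 9.90. Gm4841 rose by 10.85 ± 0.50, Tgtp1 by 10.33 ± 0.30, Iigp1 by 10.26 ± 0.30 and Ifi47 by 10.15 ± 0.26. The fold of Gm4841 rests on a mean of 1.67 normalized counts in Ctr-OPCs. Like Gbp8 and Gbp11, Gm4841 passed the filter on low counts only through the IFNg libraries, so being tested already required high values there. The tested gene that did not rise was Irgq, at 0.01 ± 0.12, which had 2057 ± 140 normalized counts in Ctr-OPCs. Tgtp1 and Tgtp2 are near-identical copies, so their separate values are uncertain.

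Genes of other systems that Gbp proteins work with were examined by list. Of 10 genes of ATG8 conjugation and ATG8 proteins, which help to load Gbp proteins onto vacuoles, 0 were higher and 1, Map1lc3a, was lower at -0.75 ± 0.14 on the log2 scale. With the replicate block 2 were lower, Map1lc3b in addition, whose log2 difference was -0.32 ± 0.19. None of 6 prenylation enzyme genes, Fnta, Fntb and Pggt1b among them, and none of the 3 atlastins, the nearest relatives of Gbp in the dynamin superfamily, passed DESeq2 or edgeR. Of 9 inflammasome genes 5 were tested, and Casp1 at 6.20 ± 0.28, Casp4 at 5.87 ± 0.78 and Gsdmd, the pore-forming effector of pyroptosis, at 4.58 ± 0.31 rose. The fold of Casp4 rests on a mean of 0.65 normalized counts in Ctr-OPCs. Casp4 also passed the filter on low counts only through the IFNg libraries, so being tested already required high values there. In the Dexa comparison 0 genes of these lists were called by DESeq2 or edgeR.

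Markers of other cells were measured beside these rises. The microglial sums given above stayed at or below 59.1 normalized counts in the IFNg libraries, and neither of the 2 tested markers, Csf1r and P2ry12, passed. Of 6 astrocyte markers Gfap rose by 3.82 ± 0.59 on the log2 scale and Aldoc was higher by 0.78 ± 0.28 by DESeq2 and not by edgeR. The others did not pass, with Aqp4 at -1.02 ± 0.51 and Gja1 at -0.35 ± 0.61, but with the replicate block 3 of the 6 were higher, Aldh1l1 in addition, and 2, Aqp4 and Gja1, lower. The summed level of the list was 8647 to 25805 in the Ctr libraries, 20657 to 37072 in the Dexa libraries and 20238 to 27943 in the IFNg libraries. Of 8 OPC markers 0 passed, though 5 were lower with the replicate block, and they summed to 198085 to 434974 in the Ctr libraries and 135154 to 307416 in the IFNg libraries. Of the 4 endothelial markers 3 were tested and 0 passed for IFN-γ, while Flt1 was called higher with dexamethasone by DESeq2 and not by edgeR. By DESeq2 with the replicate block, 2 astrocyte markers, 1 OPC marker and 1 endothelial marker were higher with dexamethasone. Of all 17919 genes tested, 368 were higher in that fit. The part of these cells in the Gbp levels was not tested.

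The genes whose pattern over the 11 libraries was most like that of the family sum were sought by the root mean square difference of their centred log2(normalized count + 1) values among 13758 genes. The nearest were Parp14 at 0.215, Serping1 at 0.365, Igtp at 0.371, Irgm2 at 0.382 and H2-Eb1 at 0.394. Parp14, an ADP-ribosyltransferase gene on chromosome 16, had 37.7 ± 12.9 normalized counts in Ctr-OPCs and 21589 ± 3842 in IFNg-OPCs (SD, n = 4). Among the members themselves Gbp5 was the closest to the sum, at 0.424, and Gbp7 the farthest, at 1.03. In IFNg-OPCs the 10 members held 9.04% to 9.52% of all reads that fell on the 1437 genes called higher with IFN-γ.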

How the data were processed

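The 4 replicates a group of control, dexamethasone-treated and IFN-γ-treated OPCs were grouped by their labels. Per the labels and the study's methods, stranded total RNA libraries were sequenced, aligned with STAR and quantified with Salmon 0.8.2. The deposited tables hold, per transcript, the authors' estimated counts and their TPM values (a share of the library scaled for transcript length). The transcript set is that of GENCODE M21 (GRCm38, Ensembl 96). The authors' tables of their own comparisons hold log2 fold changes and p-values and were not used.

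Estimated counts were summed per gene and rounded to whole numbers, and a gene was tested where 4 or more libraries had 10 or more counts. The test was run with DESeq2 1.42.0 (Wald test, all 11 complete libraries in 1 fit, no fold shrinkage) in R 4.3.3, with Benjamini-Hochberg adjustment over all genes tested and calls at an adjusted p under 0.05. edgeR 4.0.16, a replicate block, TMM scaling, no filter, fits of 2 groups and leaving out each library were alternatives. The fit was tested on simulated data. Dexa 3 was left out as its table is incomplete. Intervals are 95% normal intervals of the fit. Libraries of 19209063 to 52074652 reads set the precision of low values. The 31-base words and promoter letters were counted from the annotated transcripts and RefSeq windows.

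The labels give different litters for the replicates, and same-numbered libraries deviated together from their group means, with correlations from 0.553 to 0.848 in 10 pairs against -0.765 to 0.643 in the others. Replicates differed beyond sampling noise (chi-square per degree of freedom 22.0 to 223). All 10 members were named, with at most 4 called genes a list, the 3 nearest genes on each side of a cluster, the 5 most alike genes and other Gbp genes. Irgq, Csf1r, P2ry12 and the examples of lists with 0 calls were named after their values were seen. Members and lists were chosen with earlier results of these data known. A gene of the transcription factor list and a promoter stretch are not reported here.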

Additional observations from a re-analysis of the deposited data

Results flagged for a closer look

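The normalized count of Gbp3 in IFNg 1 was 21320, apart from the other IFNg libraries at 26097 to 26485, and the gap took 0.925 of the range of the 4 libraries, above Dixon's 95% critical value. Of 33 sets of 4 libraries checked, 1 stood out, and chance alone marks about 1 in 20. Without IFNg replicate 1 the call of Gbp3 held.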

How the results depend on the processing

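The calls of the members held under every alternative that gave a value. Gbp11 did not pass the filter on low counts in the 4 fits without an IFNg library, so that 9 members were tested and called there for IFN-γ, and Casp4 likewise gave no value there. The family sum ran from 9.15 to 9.40 (log2) for IFNg against Ctr, from -0.16 to 0.16 for Dexa against Ctr and from 9.14 to 9.43 for IFNg against Dexa.

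The number of genes called over all genes did depend on the test. For IFNg against Ctr it was 2302, against 1513 by edgeR, 5238 by DESeq2 with the replicate block and 5606 by edgeR with the block. For Dexa against Ctr it was 98, against 22, 460 and 282 in that order, and 59 to 112 without 1 library each, the lowest without Dexa replicate 2. For IFNg against Dexa it was 2345, against 5662 by DESeq2 and 6045 by edgeR with the block. Of the IFNg against Ctr calls 62.4% were higher, and 51.9% with the DESeq2 block. The block changed no member's call. The cause was not tested.

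The chromosome 3 share differed by -14.6 percentage points, also as a test over replicate pairs with the block, where p = 0.125 by the exact permutation test, and by -18.5 to -11.4 points without 1 library each, where the smallest exact permutation p that 3 against 4 allows, 0.0571, was reached each time. It was -16.6 points in estimated counts and -15.6 with Gm43302 included. The pair test, the Gm43302 setting and the summed rows with Gm43302 were chosen after seeing the data. Of 659 alternatives for 39 other genes 612 kept their call, 40 lost it, 7 gained it and 0 reversed. Low control counts limit the folds of Gbp8 and Gbp11, and those of Gm4841 and Casp4.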
